A study of Rattus norvegicus with 6 samples.

Results

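The interleukins, their receptors and the related genes that carry an interleukin symbol were examined in the pulmonary veins (PVs) of rats. A gene was included when its symbol began with Il followed directly by a digit and its mean expression over the 6 libraries was above 0. Of the 17833 genes in the deposited table, 69 met this rule. By their known roles, 36 were receptor chains, 27 were cytokines, 5 were inhibitors or decoy receptors and 1 was an enzyme (Il4i1, which carries the name of the cytokine that induces it). The set was defined by symbol alone, so partner chains and ligands with other names, such as Csf2rb, Osmr and Lif, were described separately.

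Bulk RNA-seq had been performed on PVs of the right lung's upper lobe in 6 rats, of which 3 had undergone banding of the pulmonary veins on both sides (BPVB) and 3 a sham operation. All 6 were wild-type Sprague-Dawley (SD) rats that were operated on at postnatal day 1 (P1) and sampled at postnatal day 21 (P21). In the BPVB group the veins were tied over a needle that was then withdrawn, and sham rats had the same operation up to the point of tying. The study selected the 3 rats per group at random from a larger group, and each library was treated as 1 rat. The libraries held 26686151, 26078189 and 29725808 counted fragments in the BPVB group and 23774306, 23439506 and 23821184 in the sham group. Markers of smooth muscle, endothelium and atrial myocardium, which forms a sleeve around rodent PVs, were present in every library.

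Interleukins are secreted signals that leukocytes, endothelial cells and mesenchymal cells use to regulate one another. Members of the IL-1 family signal through the adaptor MyD88 to NF-kB and are restrained by a receptor antagonist and by decoy receptors, whereas most other interleukins bind receptors that share a chain, such as gp130 or the common gamma chain, and signal through JAK kinases and STAT factors. SOCS proteins, which STAT factors induce, feed back on that signalling. In vessel walls these pathways are known for their part in leukocyte recruitment and in the growth and matrix production of mesenchymal cells.

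Expression is given as FPKM (counted fragments scaled by gene length and by the library total), which allows levels to be compared between genes. The levels spanned from 0.00331 FPKM for Il22ra1 to 98.1 FPKM for Il6st, as the plot of mean levels by rank shows. The 8 genes with the highest means were Il6st, Il11ra1, Il4r, Il33, Il2rg, Il1r1, Il10rb and Il13ra1, and in every library they made up between 81.4% and 82.4% of the FPKM of all 69 genes. Of these 8, only Il33 is a cytokine. Il6st alone made up between 28.2% and 28.8% of that sum in the BPVB group and between 27.0% and 27.2% in the sham group.

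**Figure D1:**
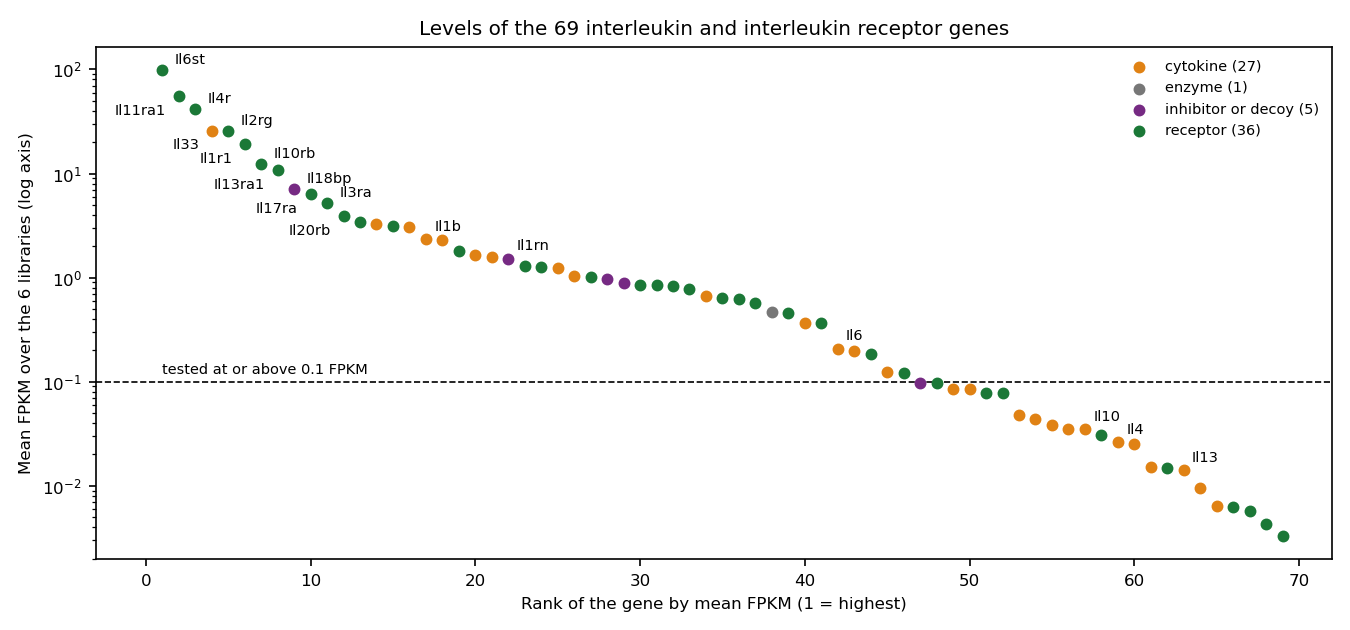
Mean FPKM over the 6 libraries (y axis, log scale) of the 69 genes in order of rank (x axis), with each point coloured by role. Receptors fill most of the upper ranks, Il33 is the highest cytokine, and 23 genes lie below the dashed line at 0.1 FPKM.

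The summed FPKM of the 36 receptor genes was 325.0, 324.7 and 332.2 in the BPVB group and 263.0, 270.0 and 266.2 in the sham group. The sum was higher in every BPVB library than in every sham library. The summed FPKM of the 27 cytokines was 42.8, 43.0 and 41.0 in the BPVB group and 48.1, 47.3 and 44.5 in the sham group, and here every BPVB library was lower. Without Il33 the cytokine sums were 19.2, 19.9 and 18.7 in the BPVB group and 18.6, 18 and 17.2 in the sham group, so that the order of the groups turned when this 1 gene was left out. With 3 rats against 3, an exact permutation test cannot give a p under 0.1, and no test was made on these sums.

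Differences between the groups were tested with limma on log2(FPKM + 0.5), with Benjamini-Hochberg adjustment over the 15150 genes that averaged at least 0.1 FPKM. The added 0.5 makes the fold change of low genes smaller than it is on the FPKM scale. Of the 69 genes, 46 passed this filter, of which Il6, Il17rb and Il21 passed through the BPVB group alone, since their sham means were under 0.1 FPKM. At an adjusted p under 0.05, 13 of the 46 rose and 2 fell in the BPVB group. The count of genes that rose was 8 without sham replicate 3. Without Il6, Il17rb and Il21, 12 of 43 rose and 2 fell, with a median log2 fold change of 0.14. The 15 called genes were 32.6% of the 46, beside 31.5% of all tested genes, so that the share of called interleukin genes was near the background. By direction, 28.3% of the 46 rose, beside 17.2% of all tested genes, and 4.35% fell, beside 14.3%. The median log2 fold change was 0.20 over the 46 genes and 0.02 over all tested genes. One gene, Il1rn, was a differentially expressed gene (DEG), with an absolute log2 fold change above 1, beside 2.24% of all tested genes that were up-regulated DEGs. This count was 1 with 1 added in place of 0.5, 5 with 0.1 added and 3 with limma-voom on the recovered fragments. None of the 46 was a down-regulated DEG, beside 1.03% of all tested genes. At an unadjusted p under 0.05, 20 of the 46 passed (43.5%), beside 42% of all tested genes. In bulk RNA, fewer cells of a type and less RNA per cell cannot be told apart, and this holds for every difference below.

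Receptors and inhibitors held 11 of the 13 genes that rose. Of the 27 tested receptors, 8 rose and none fell, with a median log2 fold change of 0.21. Of the 4 tested inhibitors and decoys, 3 rose and none fell, with a median of 0.72. Of the 14 tested cytokines, 2 rose and 2 fell, with a median of 0.07. Without Il6 and Il21, 1 of 12 cytokines rose and 2 fell, with a median of -0.0080. These counts and those of the families and lists that follow stand beside 17.2% of all tested genes that rose and 14.3% that fell. The 3 FPKM values of the BPVB group lay above all 3 sham values in 19 of the 46 genes (41.3%), beside 25.2% of all tested genes. The 19 included Il6 and Il17rb, which passed the filter through the BPVB group alone. The BPVB values lay below all sham values in 5 genes (10.9%), beside 20.5% of all tested genes. All 15 called genes were among the genes whose groups did not overlap.

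**Figure D2:**
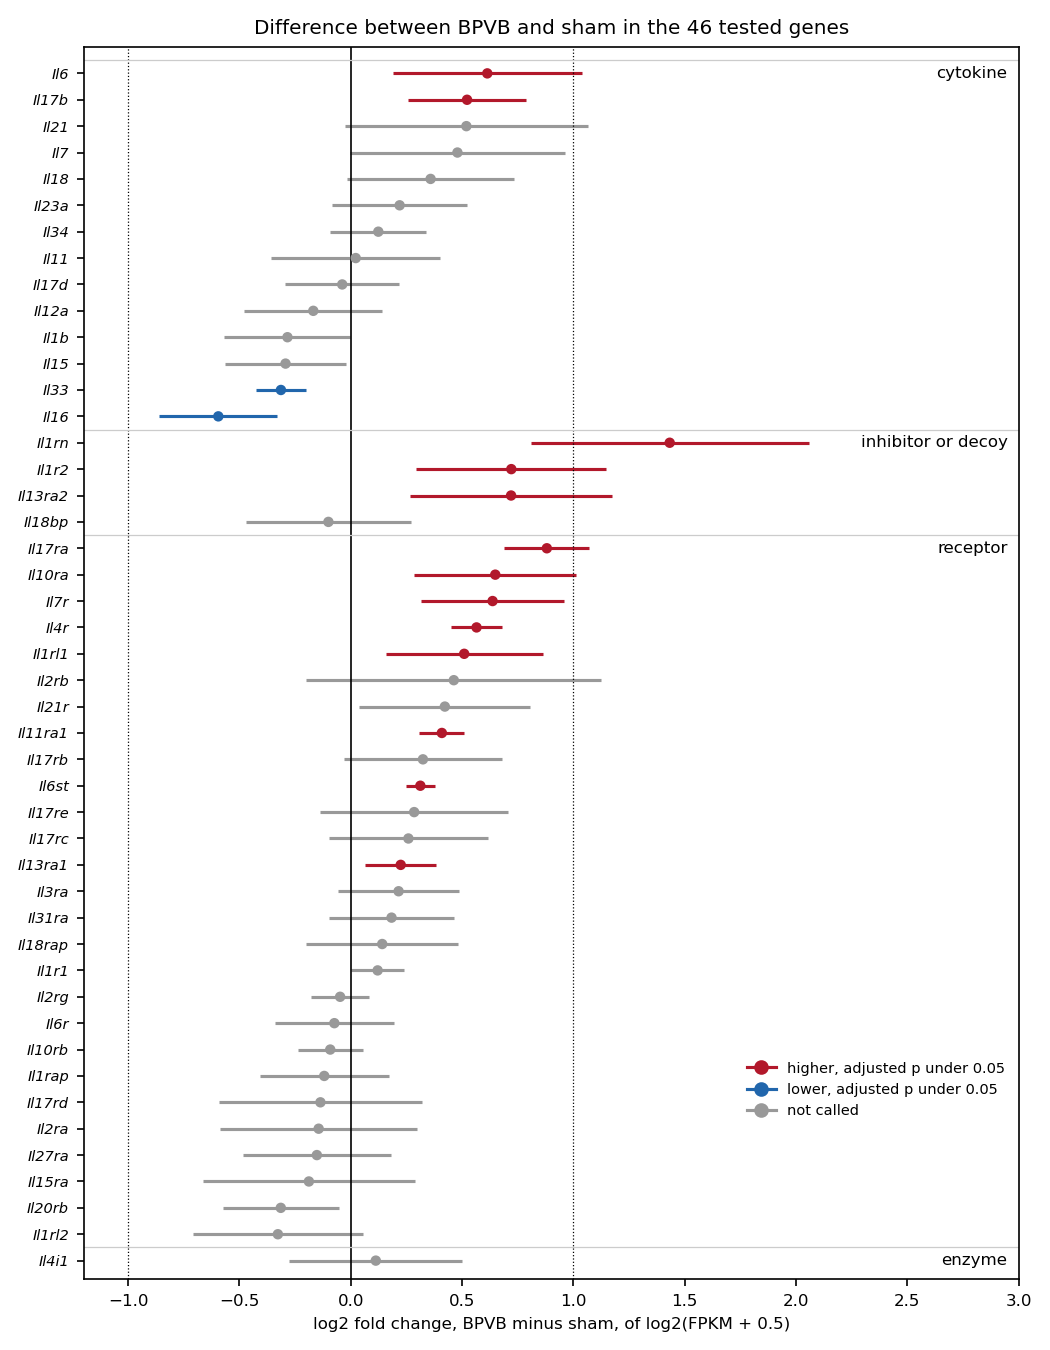
Log2 fold change (BPVB minus sham, of log2(FPKM + 0.5), x axis) of the 46 tested genes, grouped by role, with 95% intervals from limma and dotted lines at -1 and 1. Red points are the 13 genes that rose and blue points the 2 that fell, and Il1rn alone lies above 1.

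Within the IL-1 family, 2 of 3 tested inhibitors rose, 1 of 3 tested cytokines fell and 1 of 5 tested receptors rose, beside 17.2% of all tested genes that rose and 14.3% that fell. Il1rn encodes the IL-1 receptor antagonist, which occupies the receptor without signalling. Its FPKM was 2.09, 2.08 and 3.09 in the BPVB group and 0.174, 0.922 and 0.772 in the sham group. The groups did not overlap, and sham replicate 1 was lower than the other sham libraries, with 9 fragments. Il1rn rose 3.89-fold in mean FPKM, with a log2 fold change of 1.43 (standard error 0.27, adjusted p = 0.0041, limma). The span of Il1rn overlaps that of Il36b in the RefSeq annotation. Il36b had 1 fragment in the BPVB group and 7 in the sham group.

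Il1r2 encodes a decoy receptor that binds IL-1 and lacks a signalling domain. Its FPKM was 1.35, 0.954 and 1.72 in the BPVB group and 0.771, 0.614 and 0.440 in the sham group. Every BPVB value was higher than every sham value, and Il1r2 rose by 0.72 on the log2 scale (standard error 0.19, adjusted p = 0.018, limma). The call was lost when BPVB replicate 3 (adjusted p = 0.062, limma) or sham replicate 3 (adjusted p = 0.063) was left out, and with limma-voom on the recovered fragments (adjusted p = 0.065). Il18bp encodes a soluble protein that neutralises IL-18. Its FPKM was 6.24, 6.04 and 7.99 in the BPVB group and 6.34, 6.26 and 9.47 in the sham group, with overlap and no call (adjusted p = 0.68, limma).

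The agonists of the IL-1 receptor were not called in either direction. Il1b, the inflammasome-processed agonist, had FPKM of 1.8, 2.25 and 2.1 in the BPVB group and 2.27, 2.89 and 2.65 in the sham group. Every sham value was above every BPVB value, but the log2 fold change of -0.28 did not pass the test (95% interval -0.57 to -0.0014, adjusted p = 0.12, limma). Il1a, the other agonist, was below the filter, with 4, 12 and 5 fragments in the BPVB group and 5, 1 and 4 in the sham group. Il18, a related cytokine that induces interferon gamma, had FPKM of 0.718, 1.11 and 0.619 in the BPVB group and 0.472, 0.504 and 0.569 in the sham group. The groups did not overlap, and the difference was not called (log2 fold change 0.36, adjusted p = 0.13, limma).

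The signalling receptor Il1r1 was the highest receptor of the family. Its FPKM was 18.8, 20.8 and 19.9 in the BPVB group and 18.5, 18 and 18.1 in the sham group. The BPVB values were above the sham values by a log2 fold change of 0.12, which was not called (adjusted p = 0.12, limma), although limma-voom on the recovered fragments called it (adjusted p = 0.024). Il1rap, the accessory chain that Il1r1 needs to signal, had FPKM of 1.22, 1.37 and 1.03 in the BPVB group and 1.38, 1.41 and 1.25 in the sham group. These values overlapped and were not called (adjusted p = 0.52, limma). The other tested receptors of the family, Il1rl2 and Il18rap, had log2 fold changes of -0.33 and 0.14 and were not called.

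Il33 and its receptor moved in opposite directions. Il33 encodes a nuclear alarmin that is released from damaged endothelial, epithelial and stromal cells. Its FPKM was 23.6, 23.1 and 22.3 in the BPVB group and 29.5, 29.3 and 27.3 in the sham group. All BPVB values were lower, with a mean of 23.0 ± 0.64 (SD, n = 3) against 28.7 ± 1.2. Il33 fell by 0.31 on the log2 scale (standard error 0.049, adjusted p = 0.0013, limma). Il1rl1 encodes ST2, the receptor of IL-33, which exists in a membrane form and a soluble decoy form that gene-level counts cannot separate. Its FPKM was 1.05, 0.843 and 1.4 in the BPVB group and 0.575, 0.595 and 0.662 in the sham group. The groups did not overlap, and Il1rl1 rose by 0.51 on the log2 scale (standard error 0.15, adjusted p = 0.035, limma). This call rested on all libraries but one: it was kept without BPVB replicate 2, and leaving out any of the other libraries gave an adjusted p of 0.072 (BPVB replicate 1), 0.11 (BPVB replicate 3), 0.092 (sham replicate 1), 0.085 (sham replicate 2) or 0.065 (sham replicate 3). After quantile normalization it was 0.085.

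**Figure D3:**
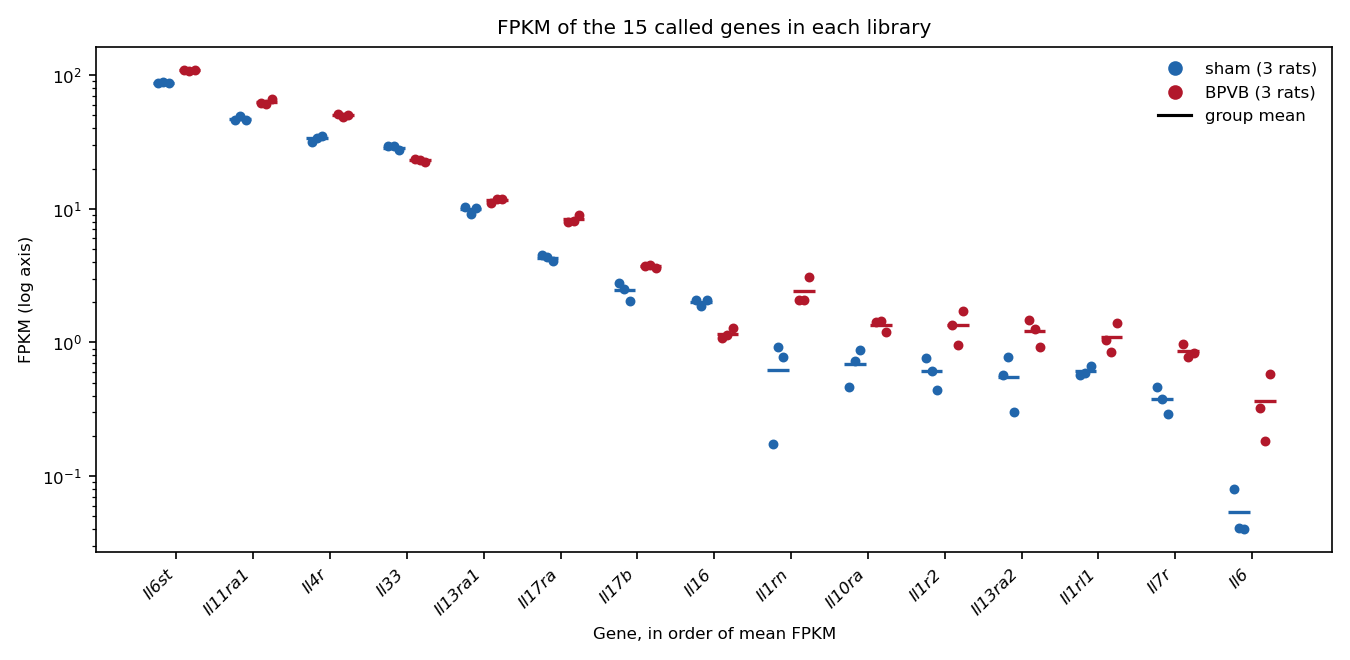
FPKM (y axis, log scale) of the 15 called genes in each of the 3 sham libraries (blue) and 3 BPVB libraries (red), with a bar at each group mean and genes in order of mean FPKM. In each gene the colours separate without overlap, with red above blue in 13 genes and below in Il33 and Il16.

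In the IL-6 and IL-12 families, which use gp130 or related chains, 3 of 9 tested genes rose, beside 17.2% of all tested genes, and none fell, with a median log2 fold change of 0.18. Without Il6, 2 of 8 rose, with a median of 0.10. Il6, the classical inducer of the acute-phase response, was among the lowest of the tested genes. Its FPKM was 0.323, 0.183 and 0.579 in the BPVB group and 0.0805, 0.0408 and 0.0402 in the sham group. These values came from 9, 5 and 18 fragments in the BPVB group and 2, 1 and 1 in the sham group. The groups did not overlap. Corrected for the library totals, the ratio of fragments was 6.89 (exact 95% interval 2.44 to 26.8, for counting error only). On log2(FPKM + 0.5), Il6 rose by 0.61 (standard error 0.19, adjusted p = 0.035, limma). The call was kept without BPVB replicate 2 and was lost on leaving out any of the other libraries, with an adjusted p of 0.071 (BPVB replicate 1), 0.099 (BPVB replicate 3), 0.069 (sham replicate 1), 0.088 (sham replicate 2) or 0.09 (sham replicate 3). On the recovered fragments with limma-voom, the adjusted p was 0.12.

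Il6st encodes gp130, the signal-transducing chain shared by IL-6, IL-11, leukemia inhibitory factor and oncostatin M. Its FPKM was 109, 108 and 109 in the BPVB group and 86.8, 88.6 and 87.0 in the sham group. The values within each group were close, and every BPVB value was higher. Il6st rose 1.24-fold (log2 fold change 0.31, standard error 0.028, adjusted p = 5.4e-05, limma).

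Il11ra1 encodes the specific receptor of IL-11. Its FPKM was 62.0, 61.3 and 65.7 in the BPVB group and 46.1, 49.7 and 46.2 in the sham group. Il11ra1 was higher in all BPVB libraries and rose 1.33-fold (log2 fold change 0.41, standard error 0.045, adjusted p = 0.00016, limma). Its span overlaps that of Ccl27 in the RefSeq annotation, and without a stated strand setting reads from the shared stretch cannot be told apart. Of the 15 called genes, Il6st, Il33 and Il16 also overlap an annotated non-coding RNA or pseudogene, and the other 10 overlap no other annotated gene.

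The ligand of that receptor and the specific receptor of IL-6 did not pass the test. Il11 had FPKM of 0.192, 0.210 and 0.197 in the BPVB group and 0.0615, 0.281 and 0.246 in the sham group. The groups overlapped, with 45 fragments in the BPVB group and 38 in the sham group (log2 fold change 0.02, adjusted p = 0.94, limma). Il6r had FPKM of 3.75, 3.40 and 2.75 in the BPVB group and 3.52, 3.40 and 3.50 in the sham group, which overlapped (adjusted p = 0.68, limma). The other tested genes of these families, Il12a, Il23a, Il27ra and Il31ra, had log2 fold changes between -0.17 and 0.22, and none was called.

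Il6 and Il1rn are shown because, among the genes that rose and had a promoter window, they held a match before the start to the letters GGGNNTTTCC, a form of the binding sequence of NF-kB. The stretch around each match is given in the orientation of the gene, with the match in capitals, from the RefSeq table of the GRCr8 build. The Il6 stretch is at chr4:5894609-5894668 on the minus strand, with the match at positions -68 to -59 relative to the annotated start. The Il1rn stretch is at chr3:27520168-27520227 on the plus strand, with the match at -129 to -120.
Il6: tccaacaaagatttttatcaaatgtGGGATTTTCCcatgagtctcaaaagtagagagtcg
Il1rn: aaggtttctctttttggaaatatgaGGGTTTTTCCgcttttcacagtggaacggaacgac

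Promoter windows, from 250 bases before to 50 bases after a start, were found for 54 of the 69 genes, with 61 windows in all, since some genes have several starts. On either strand, GGGNNTTTCC was found in 3 of these 61 windows, those of Il6, Il1rn and Il4r, and in 1.53% of 33469 windows of all genes. The match of Il4r lies after the start. The letters TTCCNGGAA, a binding sequence of STAT factors, were in 1 of the 61 windows (Il10rb) and in 1.27% of all. The wider-spaced TTCNNNNGAA, which STAT6 prefers, was in 5 of 61 and in 7.28% of all; it is 1 base longer than TTCCNGGAA and was searched for separately. Among the genes that rose, its match was in the window of Il1rl1. The AP-1 letters TGANTCA were in 6 of 61 windows and in 7.33% of all, with Il16 the called gene among them. Of the 13 genes that rose, Il11ra1, Il13ra2, Il17ra and Il1r2 had no window in the table. A match of letters is not a measured binding site.

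Among the genes of IL-4, IL-13 and the common gamma chain, 4 of 12 tested genes rose, beside 17.2% of all tested genes, and none fell, with a median log2 fold change of 0.44. Without Il21, which passed the filter through the BPVB group alone, 4 of 11 rose, with a median of 0.42. Il4r encodes the alpha chain that IL-4 and IL-13 share. Its FPKM was 51.0, 48.5 and 50.3 in the BPVB group and 31.5, 34.1 and 35.3 in the sham group. The groups were far apart relative to their spread, with means of 49.9 ± 1.3 (SD, n = 3) and 33.6 ± 2.0. Il4r rose 1.49-fold (log2 fold change 0.56, standard error 0.05, adjusted p = 4.6e-05, limma).

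Il13ra1, which pairs with Il4r to form the receptor of both cytokines on cells that are not lymphoid, had FPKM of 11.1, 11.8 and 11.9 in the BPVB group and 10.4, 9.09 and 10.2 in the sham group. The groups were separate but close, and Il13ra1 rose by 0.22 on the log2 scale (standard error 0.07, adjusted p = 0.039, limma). Among the left-out libraries, the call was kept only without sham replicate 1. On leaving out another library, the adjusted p was 0.051 (BPVB replicate 1), 0.1 (BPVB replicate 2), 0.11 (BPVB replicate 3), 0.11 (sham replicate 2) or 0.063 (sham replicate 3). It was also 0.064 after median-of-ratios scaling and 0.074 after quantile normalization.

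Il13ra2 encodes the decoy receptor of IL-13. Its FPKM was 1.46, 1.25 and 0.928 in the BPVB group and 0.571, 0.779 and 0.303 in the sham group. Every BPVB value was higher, and Il13ra2 rose by 0.72 on the log2 scale (standard error 0.20, adjusted p = 0.024, limma). The call was lost without BPVB replicate 1 (adjusted p = 0.078), BPVB replicate 2 (0.065), sham replicate 1 (0.053) or sham replicate 3 (0.069), each by limma. The ligands were near the limit of detection. Il4 had 2, 0 and 0 fragments in the BPVB group and 0 in each sham library, and Il13 had 1, 0 and 0 in the BPVB group and 0 in each sham library. At this depth no difference in either ligand was detectable.

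Il7r, the receptor of the lymphocyte survival factor IL-7, had FPKM of 0.966, 0.777 and 0.840 in the BPVB group and 0.463, 0.378 and 0.289 in the sham group. It was higher in every BPVB library and rose 2.29-fold (log2 fold change 0.64, standard error 0.14, adjusted p = 0.0083, limma). Its ligand Il7 had FPKM of 1.74, 1.83 and 1.01 in the BPVB group and 1.33, 0.784 and 0.741 in the sham group. BPVB replicate 3 lay within the sham range, and the log2 fold change of 0.48 was not called (adjusted p = 0.12, limma). Without BPVB replicate 3 it was 0.68 (adjusted p = 0.039, limma), a value that follows from which library was left out.

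The common gamma chain itself, Il2rg, had FPKM of 24.1, 26.0 and 25.4 in the BPVB group and 25.7, 27.9 and 24.6 in the sham group. These ranges overlapped, with a 95% interval of the log2 fold change from -0.18 to 0.08 (adjusted p = 0.57, limma). Il15, which supports NK cells and memory T cells, had FPKM of 1.84, 2.26 and 2.0 in the BPVB group and 2.94, 2.43 and 2.44 in the sham group. The sham values were all higher, and the log2 fold change of -0.29 was not called (adjusted p = 0.097, limma). It was called after quantile normalization (-0.38, adjusted p = 0.043). Its receptor chain Il15ra had FPKM of 0.586, 0.856 and 0.807 in the BPVB group and 1.46, 0.643 and 0.773 in the sham group, where sham replicate 1 was the highest and the others overlapped (adjusted p = 0.54, limma). The other tested genes of the family, Il2ra, Il2rb, Il21 and Il21r, were not called. Il21 had no fragment in the sham group and 4, 0 and 2 in the BPVB group. It had an adjusted p of 0.14 (limma), and of 0.021 without BPVB replicate 2, the BPVB library with no fragment, so that the latter value follows from which library was left out.

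Among the IL-10 family, only 3 receptor chains passed the filter. Il10ra encodes the ligand-binding chain of the receptor of IL-10, an anti-inflammatory cytokine, and is a chain of leukocytes. Its FPKM was 1.42, 1.44 and 1.19 in the BPVB group and 0.464, 0.730 and 0.877 in the sham group. The groups did not overlap, and Il10ra rose 1.96-fold (log2 fold change 0.65, standard error 0.16, adjusted p = 0.014, limma). Il10rb, the broadly expressed second chain, had FPKM of 11.7, 12.6 and 11.6 in the BPVB group and 12.7, 12.2 and 13.5 in the sham group, which overlapped (log2 fold change -0.09, 95% interval -0.24 to 0.05, adjusted p = 0.31, limma). Il10 itself had 0, 4 and 0 fragments in the BPVB group and 1, 0 and 0 in the sham group. The third chain, Il20rb, was not called (log2 fold change -0.31, adjusted p = 0.069, limma). It was called after quantile normalization (-0.37, adjusted p = 0.041) and without BPVB replicate 3 (-0.42, adjusted p = 0.02). That library held the BPVB value nearest the sham group (4.08 FPKM), so the latter call follows from which library was left out.

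In the IL-17 family, 2 of 7 tested genes rose, beside 17.2% of all tested genes, and none fell. Without Il17rb, which passed the filter through the BPVB group alone, 2 of 6 rose. Il17ra, the chain common to the receptors of this family, had FPKM of 8.01, 8.07 and 9.03 in the BPVB group and 4.55, 4.35 and 4.05 in the sham group. The BPVB values were all far above the sham values. Il17ra rose 1.94-fold (log2 fold change 0.88, standard error 0.084, adjusted p = 7.4e-05, limma). Il17b, a cytokine of the family that binds the receptor Il17rb, had FPKM of 3.76, 3.82 and 3.58 in the BPVB group and 2.78, 2.53 and 2.05 in the sham group. Its groups were also separate (log2 fold change 0.52, standard error 0.12, adjusted p = 0.0089, limma), but on the recovered fragments with limma-voom the adjusted p was 0.0995. Il17rb was low, with 50 fragments in the BPVB group and 11 in the sham group, a ratio of 3.91 (exact 95% interval 2.01 to 8.34, for counting error only), and was not called (adjusted p = 0.15, limma). The remaining tested genes, Il17d, Il17rc, Il17rd and Il17re, had log2 fold changes between -0.14 and 0.28 and were not called. Il17a was looked for, and its symbol was not in the deposited table. Il17b, Il17rb and Il20rb were singled out after their values were seen.

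Il16, a chemoattractant for CD4+ cells, showed the largest fall among the 46 tested genes. Its FPKM was 1.07, 1.13 and 1.29 in the BPVB group and 2.07, 1.87 and 2.09 in the sham group. All BPVB values were lower, and Il16 fell by 0.59 on the log2 scale (standard error 0.12, adjusted p = 0.0046, limma). Il34, a ligand of the receptor Csf1r that supports macrophages, had FPKM of 3.68, 3.52 and 3.21 in the BPVB group and 3.07, 3.12 and 3.22 in the sham group, which overlapped (adjusted p = 0.36, limma). Il3ra, which pairs with Csf2rb, had a log2 fold change of 0.21 and was not called (adjusted p = 0.21, limma). The enzyme Il4i1, an amino acid oxidase, had a log2 fold change of 0.11 (adjusted p = 0.66, limma).

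The 23 genes below the filter comprised 13 cytokines, 9 receptors and 1 decoy receptor, Il22ra2. Each had between 1 and 138 fragments over the 6 libraries, 8 had at most 3, and 9 were seen in 1 library only. Sham libraries held no fragment of 7 of them, and BPVB libraries held none of 3. Il12b, the shared subunit of IL-12 and IL-23, had 6, 1 and 8 fragments in the BPVB group and 0, 1 and 0 in the sham group, a ratio of 12.9 (exact 95% interval 1.99 to 544, for counting error only). Its receptor chain Il12rb1 had 5, 4 and 0 fragments in the BPVB group and none in the sham group. Set against a limit of 3 fragments over the sham group, the 9 BPVB fragments of Il12rb1 gave a ratio of 2.58 after correction for the library totals. That ratio takes the 9 as exact, so it is not a lower limit, and BPVB replicate 3 had no fragment. Il1rapl1, a synaptic member of the IL-1 receptor family, had 1, 0 and 0 fragments in the BPVB group and 0, 8 and 11 in the sham group, so that sham replicate 1 was no higher than the BPVB libraries. These 3 genes were chosen after their counts were seen, and their counts were not tested between groups.

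The genes of interleukin signalling with other symbols were read from 5 lists, whose counts stand beside 17.2% of all tested genes that rose and 14.3% that fell. Of 24 genes of the IL-1, inflammasome and NF-kB route, 7 rose and 1 fell, with a median log2 fold change of 0.14. Ikbkb, a kinase that releases NF-kB, rose by 0.65, and Nlrp3, an inflammasome sensor, rose by 0.58 on the log2 scale. Nfkbia, the inhibitor of NF-kB that NF-kB itself induces, rose by 0.45, whereas Nfkbiz, a nuclear cofactor, fell by 0.56. Casp1, the protease that matures IL-1 beta, and Pycard, its adaptor, were not called (log2 fold changes 0.09 and 0.14).

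Of the 11 JAK and STAT genes, 3 rose and none fell, with a median log2 fold change of 0.17. The kinases Jak2 (log2 fold change 0.66, adjusted p = 5.1e-05, limma) and Jak1 (0.19) and the factor Stat3 (0.29, adjusted p = 0.00031) were these, and all of them serve gp130. Stat6, the factor of Il4r, was not called (log2 fold change 0.14, adjusted p = 0.084, limma). Of 12 feedback genes of the SOCS and PIAS groups, 3 rose and 3 fell, with a median of 0.04.

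Socs3, the suppressor that binds gp130, was the DEG of that list. Its FPKM was 5.53, 5.55 and 6.13 in the BPVB group and 13.6, 13.8 and 13.4 in the sham group. All BPVB values were under the sham values by a wide margin, and Socs3 fell by 1.18 on the log2 scale (standard error 0.067, adjusted p = 3.2e-06, limma). Socs2 fell by 0.90 and Cish by 0.53, both known targets of STAT5, whereas Socs1 rose by 0.52. Of the called genes, the plot of the gp130 route shows Il6, Il11ra1, Il6st, Osmr, Jak1, Jak2, Stat3, Socs1 and Socs7 above 0 and Socs2, Socs3 and Cish below it. The other genes in the plot were not called, and Il6r, Lifr, Cntf, Tyk2, Stat5a, Stat5b and Socs6 among them lay below 0.

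**Figure D4:**
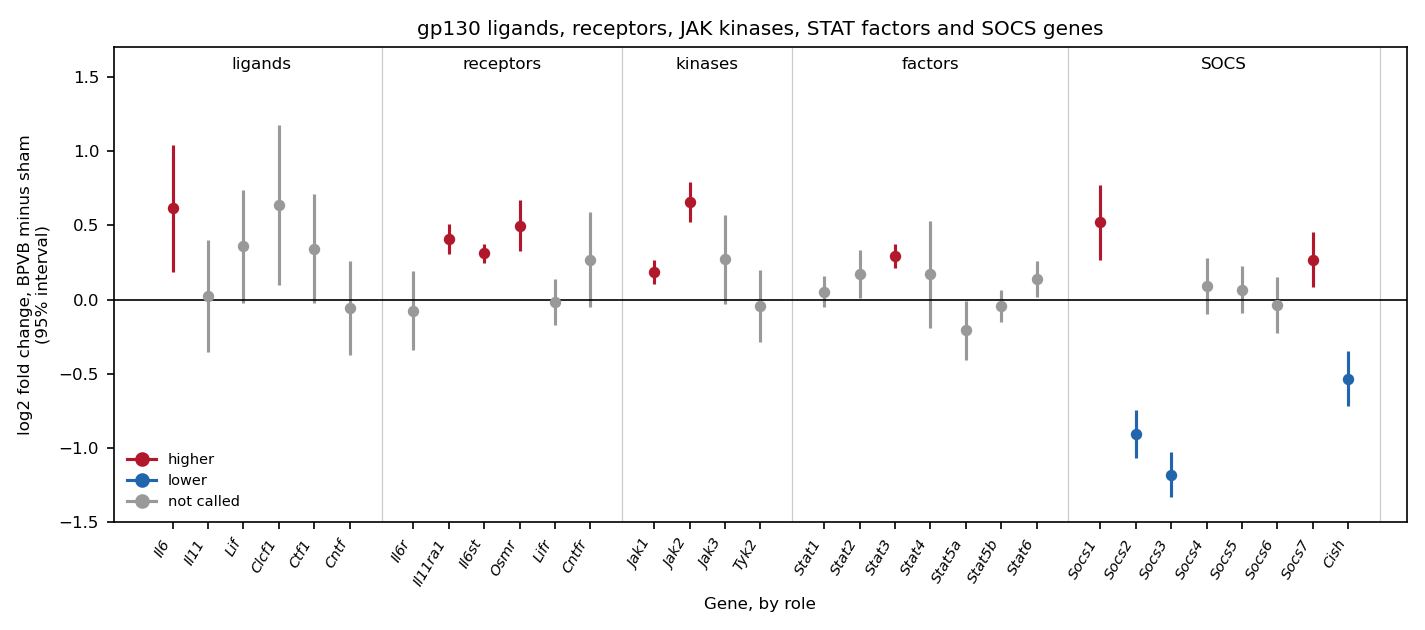
Log2 fold change (BPVB minus sham, of log2(FPKM + 0.5), y axis) with 95% intervals from limma for ligands, receptors, JAK kinases, STAT factors and SOCS genes (x axis, by role), in red where the gene rose, in blue where it fell and in grey where it was not called. The red genes above 0 are Il6, Il11ra1, Il6st, Osmr, Jak1, Jak2, Stat3, Socs1 and Socs7, and the blue genes below 0 are Socs2, Socs3 and Cish. All others are grey and lie on both sides of 0.

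Of 10 further ligands and receptors of gp130, 9 were tested and 1 rose, with a median log2 fold change of 0.27. It was Osmr, the oncostatin M receptor, with a log2 fold change of 0.50 (adjusted p = 0.001, limma), while Lifr, the receptor of leukemia inhibitory factor, was not called (-0.02). Of 10 partner chains and cytokines, 9 were tested, 3 rose and none fell, with a median of 0.37. The 9 and their median include Csf2, which was not called. It passed the filter through the BPVB group alone, with no fragment in the sham group. Csf2rb, the common beta chain of the IL-3, IL-5 and GM-CSF receptors, rose from 6.46 to 16.7 mean FPKM (log2 fold change 1.3, adjusted p = 2.2e-05, limma) and was a DEG. Csf1r (log2 fold change 0.64) and Csf2ra (0.58) also rose. Csf1r is in the macrophage marker list as well.

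Markers of several cell types differed between the groups alongside these genes, and their part in the differences was not tested. Of 10 macrophage markers, all but Marco were in the deposited table. Of these 9, 8 rose, and the summed FPKM of the 9 was between 714 and 732 in the BPVB group and between 253 and 260 in the sham group. Lyz2, which type 2 cells also express, made up most of this sum, and without it the sums were 129 to 140 against 89.4 to 95.6. Of 7 mast cell markers, a cell type known to carry Il1rl1, 4 rose (sums 23.8 to 27.2 against 14.7 to 15.8). Of 7 neutrophil markers, a cell type known to carry Il1r2 and Il1b, 5 fell (6.76 to 10.8 against 22.9 to 26.0). Of 7 T cell markers, Cd4 rose, and the CD3 genes Cd3d, Cd3e and Cd3g were not called (sums 11.0 to 13.4 against 8.51 to 9.35). Without Cd4 the T cell sums overlapped (2.98 to 4.66 against 3.25 to 4.45), and the median log2 fold change of the list was -0.08. Of 4 tested NK cell markers 2 rose (3.19 to 4.08 against 1.24 to 1.93), and of 5 B cell markers none was called (2.46 to 2.89 against 1.99 to 3.34).

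Markers of lung epithelium also differed. All 8 alveolar type 2 markers rose, with sums between 552 and 598 FPKM in the BPVB group and between 61.5 and 63.0 in the sham group, and 5 of 6 alveolar type 1 markers rose while 1 fell (192 to 203 against 128 to 131). Of 4 tested markers of club and ciliated cells, the club cell gene Scgb1a1 rose 6.24-fold and Tppp3 fell (sums 105 to 119 against 136 to 143). Tppp3 made up most of these sums, which were 24.2 to 28.7 against 3.53 to 5.38 without it. Among the cells of the vein wall, 5 of 7 endothelial markers fell (977 to 992 against 1088 to 1094), and 4 of 6 smooth muscle markers fell while 1 rose (4357 to 4399 against 4559 to 4627). Of 6 atrial myocardial markers 5 fell and 1 rose (13493 to 13920 against 18086 to 18442), and of 6 fibroblast markers 3 rose and 2 fell (5189 to 5221 against 4703 to 4712). Il33, a gene of endothelial, epithelial and stromal cells, had a log2 fold change of -0.31. The endothelial markers had a median of -0.17 on the same scale, with values from -0.34 to -0.03. The median was 0.13 over the fibroblast markers, 2.96 over the type 2 markers and 1.81 over the type 1 markers.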

How the data were processed

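The authors' bulk RNA-seq values were deposited as FPKM, 1 value per gene and rat, with NCBI Gene numbers. The study's methods name fastp, HISAT and HTSeq-count, whereas the submitters' processing notes name HISAT2 2.0.5, StringTie 1.3.3b, featureCounts 1.5.0-p3 and DESeq2 1.20.0. The genome build and strand setting were not given in the sources used here. The library kit is named differently by the labels (NEBNext Ultra) and the methods (VAHTS Universal V6). Groups were taken from the sample titles.

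Fragment numbers were worked out from the whole-number steps of each gene's values in the 6 libraries, and are the smallest numbers the values allow. All 17833 genes came out whole, within 1.2e-10 of a fragment. Libraries of one group differed by more than sampling noise (chi-square per gene 4.63 to 6.54, where independent fragments give about 1), so none was counted as a duplicate, although this does not exclude repeat libraries of 1 sample. Counting intervals and limits cover counting error only, since a fragment may not be an independent molecule.

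Differences were tested with limma 3.58.1 in R 4.3.3 (trend on mean expression, two-sided) on log2(FPKM + 0.5), restricted to the 15150 genes averaging at least 0.1 FPKM, with Benjamini-Hochberg adjustment over all of them. The test's limit was an adjusted p of 0.05, and DEGs also had an absolute log2 fold change above 1. DESeq2 was not run, and limma-voom was the test on the recovered fragments. The steps were tested on simulated data. Values in every library are given for interleukin genes that were DEGs, for called ones with an absolute log2 fold change of at least 0.58, for the 8 highest genes and for a list of named interleukins, and others by range. The 4 largest called changes of each pathway list are named. Of the 5 pathway lists and 13 marker lists, each was described by counts, with no set test. The genes and lists were chosen with earlier results of these data known. Alternatives were pseudocounts of 1 and 0.1, 2 other filters, 3 other scalings, the replicate number as a block, limma-voom on the recovered fragments and leaving out each library in turn. Other steps ran in Python 3.11.15 (numpy 2.4.6, pandas 2.3.3, scipy 1.17.1, matplotlib 3.10.9). Promoter sequences and gene spans were taken from RefSeq (GRCr8).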

Additional observations from a re-analysis of the deposited data

How the results depend on the processing

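Under the 15 alternatives, the 46 tested genes gave 668 values, of which 624 kept their direction and their side of the threshold, 28 lost a call, 6 gained one and 10 changed sign. Of the 15 called genes, 9 kept the call in every alternative that tested them: Il1rn, Il17ra, Il10ra, Il7r, Il4r, Il11ra1, Il6st, Il16 and Il33. The count of genes that rose was 13, and between 8 and 12 when 1 library was left out, with 8 without sham replicate 3, where Il13ra1, Il13ra2, Il1r2, Il1rl1 and Il6 lost the call. It was 8 among the 27 genes that averaged at least 1 FPKM, a filter that removes 5 of the 13 genes. After quantile normalization 11 rose and 4 fell, beside 13 and 2, with Il15 and Il20rb added to the falls. Up-regulated DEGs numbered 5 with a pseudocount of 0.1 (Il1rn, Il6, Il1r2, Il13ra2 and Il7r) and 3 with limma-voom on the recovered fragments (Il1rn, Il13ra2 and Il7r), beside 1. The sign changed only in genes without a call. The log2 fold change of Il11 was -0.0281 after quantile normalization. When 1 library was left out, it ranged from -0.125 to 0.113 for Il11, -0.0664 to 0.0163 for Il17d, -0.284 to 0.0229 for Il17rd, -0.0087 to 0.277 for Il4i1, -0.159 to 0.0358 for Il6r, -0.343 to 0.0443 for Il15ra, -0.0871 to 0.000422 for Il2rg and -0.218 to 0.0836 for Il18bp. The cause of these changes was not tested. With the replicate block 12 genes rose and 2 fell, and Il13ra1 lost its call (adjusted p = 0.066). The deviations of libraries with the same replicate number correlated by 0.0255, 0.0136 and 0.0153, so the numbers were not taken as pairs, although each library correlated best with its own number. Some tested genes had few fragments, such as Il6, Il21 and Il17rb, and 8 of the 23 genes under the filter had at most 3 fragments in all. The effect of depth was not tested.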
